A study of Mus musculus with 13 samples.

Results

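Insertion sites of a Sleeping Beauty transposon that were placed in satellite-like arrays and on contigs outside the assembled chromosomes are described here, in a library of F123 cells, a CastX129 hybrid mouse embryonic stem cell line. The library is the plasmid pool, labelled as random remobilization from a plasmid. The places are all contigs other than chromosomes 1 to 19, X and Y, and 3 windows, on chromosome 9 (3000001 to 3100000), chromosome 2 (98600001 to 98700000) and chromosome 11 (3100001 to 3200000), in mm10 (GRCm38) coordinates. Positions within 10 bp of a neighbour were counted as 1 site, whose coordinate is that of its best supported position. This gave 497 sites of 31146 in the library, with 1084 of its 63031 placed reads. The windows were picked for how many sites of this library they hold, so those numbers are a description, given with no test. The contigs were picked by name.

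The other libraries were 1 pool whose transposons had been remobilized from a parental line (the remobilized pool), 1 control without transposons, and 9 clonal lines with labels from 5kb to 73Mb. The labels give wild type as the genotype of both pools and of the control, which share 1 batch label, and rad21-dTag as that of the clones, which share another, so that genotype, batch and the split into pools and clones cannot be told apart. In all libraries purified genomic DNA was transcribed with T7 RNA polymerase, a step that the labels call in situ transcription although their protocol starts from purified DNA, and the RNA was sequenced. Each group was 1 library, so every test below compares sites of these libraries and not conditions, and intervals cover counting error only. Total reads were 78338 in the plasmid pool, 2619 in the remobilized pool, 1 in the control and between 62 and 3319 in the clones.

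Sleeping Beauty is excised from one DNA and joined to another by its transposase, and its target is the dinucleotide TA, which is duplicated at both ends. Mouse centromeres are flanked by arrays of the AT-rich major satellite, a tandem repeat whose copies differ little from one another, and genome assemblies hold only a small part of these arrays, on chromosomes and on unplaced contigs. Reads from any copy can therefore be placed only on the few copies that an assembly has. How reads that fit several copies were placed is not given in the sources used here.

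The repeat was read from annotated exons, because the gene models of the chromosome 9 and chromosome 2 windows cover part of the arrays. The unit below is the first 234 bases of an exon of the lincRNA model Gm26870, which runs from 3024048 to 3024631 on chromosome 9. It is shown because positions are counted along it in what follows, from 1 at its left end on the plus strand of chr9:3024048-3024281, with every TA in capitals.
Repeat unit: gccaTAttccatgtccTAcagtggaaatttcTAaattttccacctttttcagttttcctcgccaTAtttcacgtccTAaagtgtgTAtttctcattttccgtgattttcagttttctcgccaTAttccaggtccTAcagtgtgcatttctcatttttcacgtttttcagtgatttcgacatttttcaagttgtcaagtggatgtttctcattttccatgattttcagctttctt
Within that exon, 94.0% of bases matched the base 234 bp farther on, the highest match of all shifts tried. The length of 234 bp was taken from the distances between sites given below. The exon was chosen as the one of this model that best matched itself at that shift. The match is therefore no independent support for the length. The unit holds 8 TA dinucleotides and 36.3% G and C.

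The best supported sites of the chromosome 9 and chromosome 2 windows lay at the same TA of this unit. Each is shown with 12 bases on either side of the deposited base, with the first 3 turned so that they run in the direction of the unit, and with capitals on the 2 bases at the site.
Chromosome 9 at 3001012, 26 reads, plus strand shown: cctaaagtgtgTAtttctcattttc
Chromosome 9 at 3000602, 19 reads, plus strand shown: cctaaagtgtgTAtttctcattttc
Chromosome 2 at 98666931, 35 reads, minus strand shown: tcctaaagtgtgTAtttctcatttt
Chromosome 11 at 3133707, 4 reads, plus strand shown: tgcagtgtagaTActcatagccttg
The first 3 have their TA at position 87 of the unit, with 0 mismatches to it over the 25 bases. The chromosome 11 site, in an exon of Sfi1, is the best supported of its window and did not match the unit. The deposited strand was minus at both chromosome 9 sites and plus at the chromosome 2 site, where the unit runs the other way. Whether the deposited strand is that of the read or of the transposon is not given in the sources used here, so strand below means the deposited strand and says only which sites share it.

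The places differed in number of sites, strand and reads. The chromosome 9 window held 156 sites and 336 reads, all between 3000134 and 3038167, where the lincRNA model Gm26870 spans nearly the whole array and 9 shorter models annotated as protein coding also hold sites. The next site outside, at 3159584, had 2 reads, and the last inside, at 3038167, had 2. The chromosome 2 window held 55 sites and 321 reads within 4.97 kb, from 98662285 to 98667259. The sites at both of these ends had 1 read, and the nearest sites outside, at 97227562 and 98747453, had 2 reads each. The chromosome 11 window held 29 sites and 49 reads spread from 3108601 (3 reads) to 3199323 (1 read), and the next site above lay at 3435889 with 1 read. The contigs held 257 sites and 378 reads on 29 contigs, of which JH584304 had 183 sites. GL456211, unlocalized on chromosome 1, had 12 sites, the other contigs had 1 to 6 each, and 12 contigs had 1 site.

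**Figure D1:**
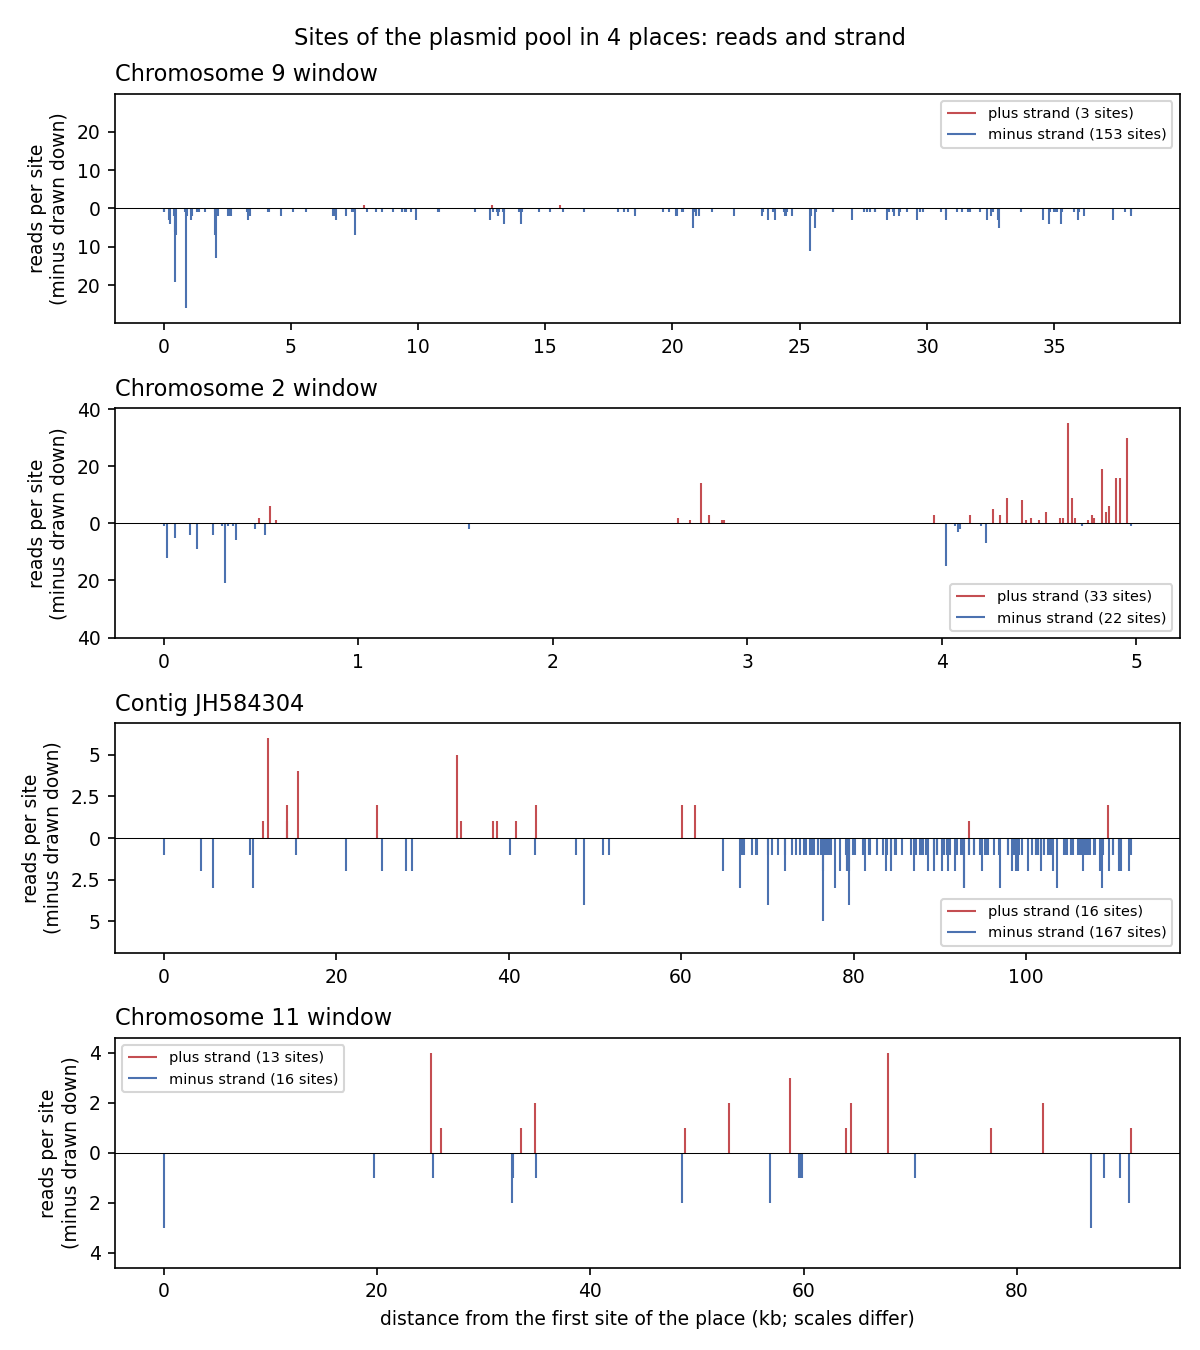
Reads per site (vertical axis) against distance in kb from the first site of each place (horizontal axis), for the plasmid pool, with plus-strand sites drawn up in red and minus-strand sites drawn down in blue. In the chromosome 9 window 153 of 156 sites are on the minus strand, contig JH584304 is mixed in its first part and almost all minus in its second, and the chromosome 2 window leans to minus in its first 2 blocks and to plus in its last 2.

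Strand was far from even in the arrays. Of all 497 sites in the places, 20.3% (95% exact Clopper-Pearson interval 16.9 to 24.1) were on the plus strand, against 50.6% (50.01 to 51.13) of the other 30649 sites of the library (two-sided Fisher's exact test, odds ratio 0.249, p adjusted over 5 tests 1.65e-42). The chromosome 9 window had 3 plus and 153 minus sites, or 1.92% plus (0.398 to 5.52; exact binomial test, two-sided, with a null of equal shares, p adjusted over 5 places 6.93e-41). Contig JH584304 had 16 plus and 167 minus sites, or 8.74% plus (5.08 to 13.8; exact binomial test, adjusted p 1.73e-32). As background, 20% of the 20 windows of 100 kb or contigs with at least 10 sites in this library departed from equal strand shares (exact binomial test, adjusted over the 20), and both of these places are among them. The chromosome 2 window, with 33 plus and 22 minus sites (60%, 45.9 to 73.0), the chromosome 11 window, with 13 and 16, and the other 28 contigs, with 36 and 38, did not depart from equal shares at these numbers (exact binomial test, adjusted p 0.295, 0.889 and 0.908). Neighbouring copies of a repeat share their sequence, so sites in them may depend on one another and the p-values may be too small. With at least 5 reads per site, 40.0% of 35 sites in the places were on the plus strand against 55.0% of 1788 others (Fisher's exact test, adjusted p 0.0874). That limit left 19 of the 35 sites in the chromosome 2 window.

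A strand skew was also seen in a few places outside the rule. Of those 20 windows or contigs, 15 lay outside the places, and 2 of the 15 departed from equal shares. One was on chromosome 14, starting at 19400001, with 12 of 12 sites on the plus strand (adjusted p 0.00326, exact binomial test), and holds Gm21738, described below. The other was on chromosome 17, starting at 39800001, with 11 of 12 on the plus strand (adjusted p 0.0317, exact binomial test). In the remaining 13 windows outside the places the adjusted exact binomial p was above the threshold of 0.05. The windows outside the places held 10 to 14 sites each, and at such numbers only a strong skew can pass.

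Within JH584304 the skew was uneven along the contig. The contig has 1 annotated gene, AC149090.1, from 52190 to 59690, and its end was used as the border, a choice made after the values were seen. Up to 59690 there were 28 sites, 12 plus and 16 minus (42.9% plus, 24.5 to 62.8), or 0.469 sites per kb. Beyond it there were 155 sites, 4 plus and 151 minus (2.58% plus, 0.708 to 6.48), or 2.83 sites per kb. The second part also had more sites with 1 read, 113 of 155 (72.9%), than the first, 14 of 28 (50%), a difference that was not tested. The contig thus has a sparse part of mixed strands and a denser part almost all on 1 strand. The border is not where this changes, since the first sites beyond it, at 62317 and 63831, were plus. The next were minus, at 67001 and 69045.

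The chromosome 2 window fell into 4 blocks separated by more than 500 bp, a division made after the values were seen. The first, from 98662285 to 98662864 and overlapping the coding model Gm10801, had 13 minus and 3 plus sites with 80 reads. The second was a single minus site at 98663853 with 2 reads. The third, from 98664930 to 98665166, had 6 plus and 0 minus sites with 22 reads. The fourth, from 98666245 to 98667259 around the coding model Gm10800, had 24 plus and 8 minus sites with 217 reads. The near-even total of this window was therefore a mixture of blocks that lean to opposite strands.

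When strand was read relative to the repeat unit, both windows leaned the same way. Of the sites in the places, 107 had annotated exonic sequence around them (at least 17 of 25 bases), and 102 of these matched the unit with at most 5 mismatches, with a mean of 0.686. These were 77 of 77 on chromosome 9, 25 of 25 on chromosome 2 and 0 of 5 on chromosome 11, whose sites had at least 11 mismatches. For 6 of the 102 the best position in the unit was tied with another. On chromosome 9 all 77 sites lay where the unit runs along the plus strand, and on chromosome 2 this held for 6 sites, while 19 lay where it runs along the minus strand. These are numbers of sites and not of copies, since several sites can lie in 1 copy. The deposited strand ran against the unit at 76 of 77 sites on chromosome 9 (98.7%, 92.98 to 99.97) and at 23 of 25 on chromosome 2 (92.0%, 74.0 to 99.0). The 3 exceptions, at 3015698 on chromosome 9 and at 98667007 and 98667259 on chromosome 2, had 1 read each. No sequence was used for the contigs, so the direction of their copies is not given here.

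Sites outside the places that matched the unit showed the same direction. Of 1385 exonic sites elsewhere in the library, 6 matched, all in the coding model Gm21738 on chromosome 14, and at 6 of 6 the deposited strand ran against the unit (exact Clopper-Pearson interval 54.1 to 100%). They lay in copies of 1 direction and in 1 gene model, so they are 1 further array and not 6 independent ones. The best supported of them, at 19417229 with 35 reads, is shown in the direction of the unit, to which it has 3 mismatches. Capitals mark the 2 bases at the site, which are not a TA, while the 2 bases directly before them are.
Chromosome 14 at 19417229, 35 reads, minus strand shown: tggacatttctaCAttttcgacctt

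On chromosome 9 the distances between sites showed the length of the repeat. Over all pairs of sites in the chromosome 9 window up to 1000 bp apart, the most frequent distance was 234 bp, with 18 of 704 pairs (2.56%, 1.52 to 4.01), followed by 468 bp with 11. Distances of 702 and 936 bp, the next multiples, had 7 and 6 pairs. The mean was 0.704 pairs per distance. A length of 234 bp is that of the major satellite repeat known from the mouse genome. The distances of 21 bp, with 9 pairs, and 37 bp, with 7, equal those between TA dinucleotides of the unit at positions 66 and 87 and at 87 and 124.

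On contig JH584304 the most frequent distance was 935 bp, with 10 of 496 pairs, 1 bp short of 4 times 234 bp. The distances next in number were 446 and 680 bp with 5 pairs each. A distance of 234 bp had 4 pairs, as did 37, 231, 255, 474 and 936 bp, while 468 bp had 0 and 702 bp had 1, so 234 bp did not stand out on this contig. In the chromosome 2 window the most frequent distance was 76 bp with 6 of 631 pairs, and 7 pairs were 233 to 235 bp apart. The chromosome 11 window had 15 pairs within 1000 bp, each at a distance of its own, and 0 at 234 bp. Among the other sites of the library 871 pairs lay within 1000 bp, of which 1 was 234 bp apart (0.115%, 0.00291 to 0.638). Pairs share sites and are not independent, and no test was made. The median gap between neighbouring sites was 153 bp on chromosome 9, 34 bp on chromosome 2, 280.5 bp on JH584304, 1406.5 bp on chromosome 11 and 55167.5 bp among the other sites.

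**Figure D2:**
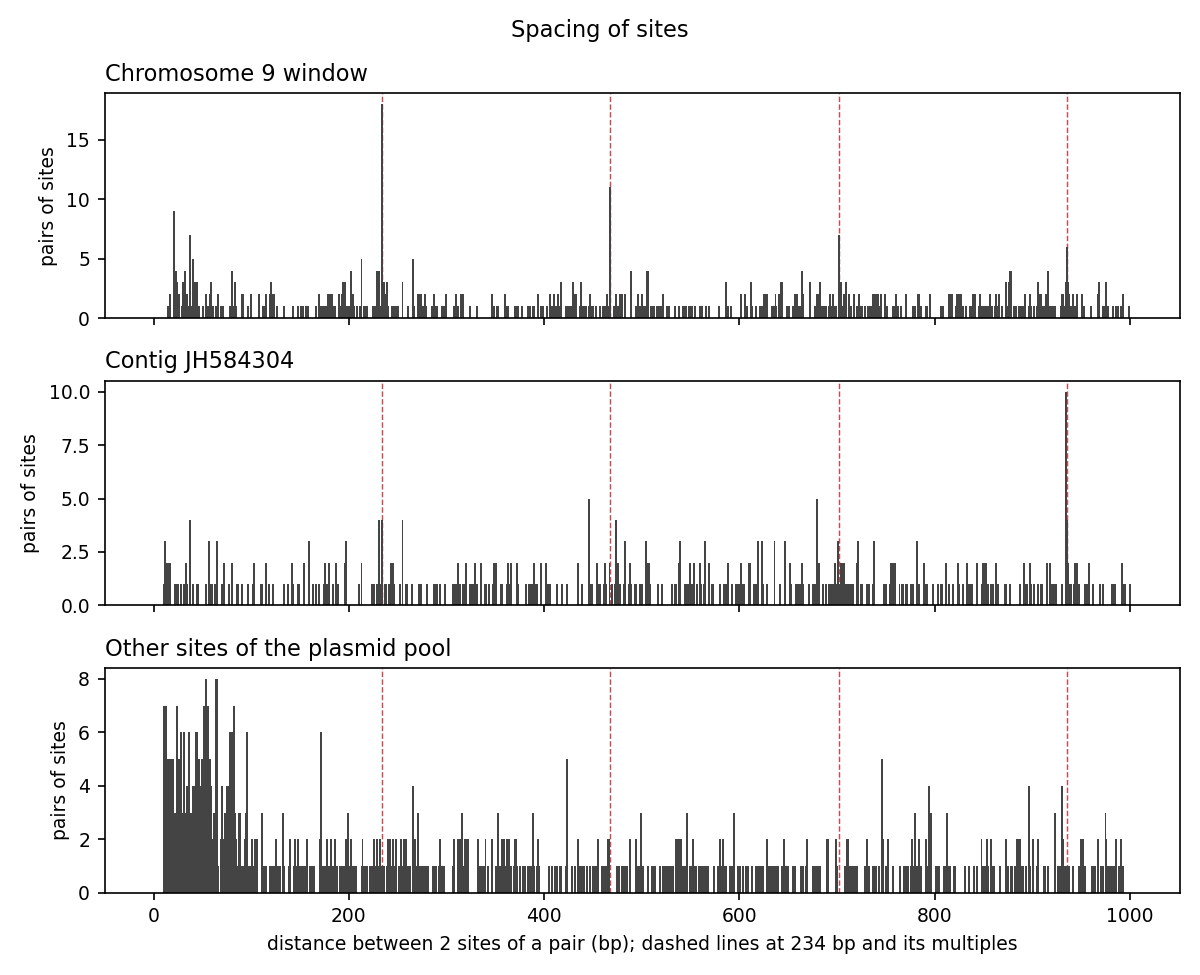
Number of pairs of sites (vertical axis) at each distance in bp (horizontal axis) in the chromosome 9 window, on contig JH584304 and among the other sites of the plasmid pool, with dashed lines at 234 bp and its multiples. The chromosome 9 window peaks at 234 bp with 18 pairs and at 468 bp with 11, JH584304 at 935 bp with 10, and the other sites have 1 pair at 234 bp.

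Before merging, 160 deposited positions of the chromosome 9 and chromosome 2 windows could be laid onto 1 unit, with 385 reads. They fell on 59 of its 234 positions. At a TA were 54 of them (33.8%) with 197 reads (51.2%), and the other 106 (66.2%) were spread over 54 unit positions. The TA ending at position 87, in the bases tgtgtatttc, held 24 positions with 100 reads, 26.0% of the reads, with a lowest value of 1, a median of 1 and a highest of 24 reads. The TA ending at position 66, in gccatatttc, held 16 positions with 50 reads (1 to 10, median 2). At position 33, in tttctaaatt, 3 positions held 27 reads, of which 24 were at 1 position of chromosome 2.

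The other TA dinucleotides held fewer reads or were empty. The TA at position 124, in gccatattcc, held 8 positions with 14 reads, and the one at position 6, in the same 10 bases, held 3 positions with 6 reads. The 3 that follow gtcc, at positions 18, 78 and 136, held 0 positions each, which allows a share of up to 1.88% of the 160. The bases after these 3 were cagt or aagt, which follow none of the used ones. Used and unused TA thus differed in the bases on both sides in this unit, and with 8 TA dinucleotides no test was made.

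**Figure D3:**
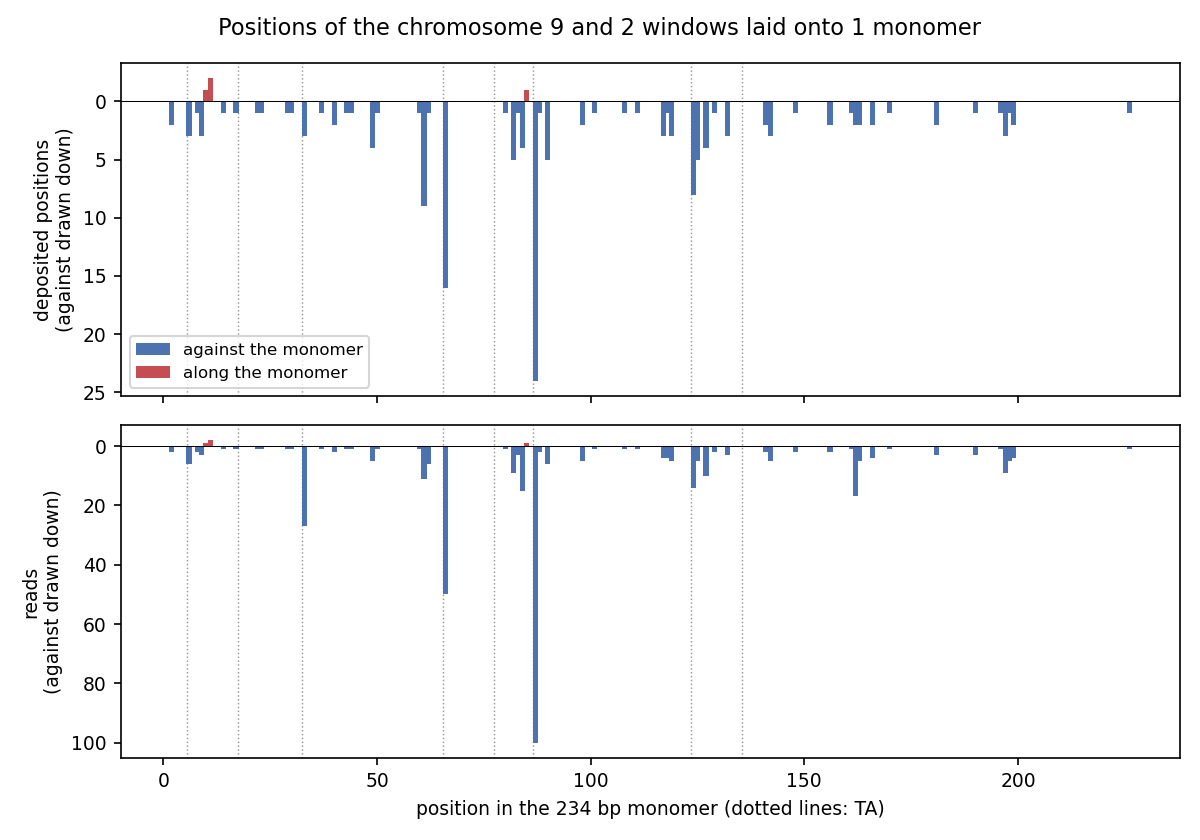
Number of deposited positions (upper panel) and reads (lower panel) against position in the 234 bp unit (horizontal axis) for the chromosome 9 and chromosome 2 windows, with positions whose strand runs against the unit drawn down in blue, those along it drawn up in red, and dotted lines at the 8 TA dinucleotides. The highest bar, at position 87, has 24 positions and 100 reads, all against the unit, and 4 positions with 4 reads run along it.

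The bases around the most used TA occurred in many copies, and a few of these held most of its reads. The 25 bases around the site at 3001012 occurred 35 times in the annotated exons of both windows, 32 times on chromosome 9 and 3 times on chromosome 2. Of these copies, 21 (60%) held reads at that TA against the direction of the unit, 91 reads in all, with a lowest value of 1, a median of 1 and a highest of 24. The copies with the sites at 98666931, 3001012, 98667182 and 3000602 held 24, 18, 14 and 12 of these reads, and the other 17 held 1 or 2 each. None of the 35 held a read along the unit at that TA, and 14 held no read there at all. Over these 25 bases the copies cannot be told apart, so how many separate insertions the 91 reads stand for was not tested.

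Over all sites with sequence, TA was less frequent in the places than elsewhere. It was read where a site lay in an exon with at least 8 bases on both sides, as the deposited base joined to its neighbour at the coordinate 1 lower. There it was found at 47 of 99 sites in the places (47.5%, 37.3 to 57.8) and at 1003 of 1368 other sites (73.3%, 70.9 to 75.6; two-sided Fisher's exact test, odds ratio 0.329, p adjusted over 5 tests 2.46e-07). Within 2 bp of the deposited base, the shares were 53.5% and 95.8% (Fisher's exact test, adjusted p 1.26e-30). With at least 2 reads per site, TA was at 51.8% of 56 sites in the places and 77.0% of 777 others (Fisher's exact test, adjusted p 0.000101). With at least 5 reads, it was at 75.0% of 16 sites in the places and 74.7% of 91 others (Fisher's exact test, adjusted p 1, a comparison chosen after the values were seen). By place, TA was at 34 of 71 sites on chromosome 9 (47.9%, 35.9 to 60.1), 8 of 23 on chromosome 2 (34.8%, 16.4 to 57.3) and 5 of 5 on chromosome 11 (47.8 to 100%).

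Within the places the share was 41.9% (27.0 to 57.9) among 43 sites with 1 read, 51.8% (38.0 to 65.3) among 56 with at least 2 and 75.0% (47.6 to 92.7) among 16 sites with at least 5 reads, and these were not tested against each other. For comparison, TA made up 3.50% of all neighbouring base pairs in the exons of the chromosome 9 window, 4.19% on chromosome 2 and 3.36% on chromosome 11. The bases come from the reference assembly, and copies in F123 cells may differ from it, which was not tested. By number of deposited positions, the most frequent place without TA was position 61 of the unit, with 9 positions and 11 reads, 5 bp before the TA at position 66. More reads lay at unit positions 162 and 84, with 17 and 15.

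Most sites in the places had little support. Of the 497, 305 had 1 read (61.4%, 56.9 to 65.7), against 14314 of the other 30649 (46.7%, 46.1 to 47.3; two-sided Fisher's exact test, odds ratio 1.81, p adjusted over 5 tests 2.36e-10). On the contigs 70.8% of the sites (64.8 to 76.3) had 1 read, and without the contigs 51.2% of 240 sites had 1 read (Fisher's exact test, adjusted p 0.173). The chromosome 9 window had 59.0% (50.8 to 66.8), chromosome 11 55.2% (35.7 to 73.6) and chromosome 2 27.3% (16.1 to 41.0).

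The chromosome 2 window stood at the other end, with 5.84 ± 7.24 reads per site (mean ± SD over 55 sites of 1 library), against 2.15 ± 2.91 on chromosome 9, 1.69 ± 0.930 on chromosome 11, 1.45 ± 0.850 on JH584304 and 2.02 ± 1.65 among the other sites. Its 55 sites were merged from 111 deposited positions, and 54.5% of them held more than 1 position, against 0.659% of the other sites of the library. After 98666931, its best supported sites were at 98667236, in an exon of Gm10800, with 30 reads and at 98662601, in a Gm10801 intron, with 21. On chromosome 9 the third site, after the 2 shown above, was at 3002176 with 13 reads, in introns of Gm26870 and Gm10722. The mean was 3.73 reads per site over the 33 sites in the first 5 kb of the window and 1.09 to 2.05 in each of the 7 further steps of 5 kb.

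On the contigs the best sites were at 77579 on GL456221 with 7 reads, at 22166 on GL456392 with 6 and at 14294 on JH584304 with 6. On chromosome 11, the 2 sites after the one shown above were at 3176502 with 4 reads, in an Sfi1 intron, and at 3108601 with 3 reads, outside genes. No site of the chromosome 11 window or of the contigs reached 10 reads.

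**Figure D4:**
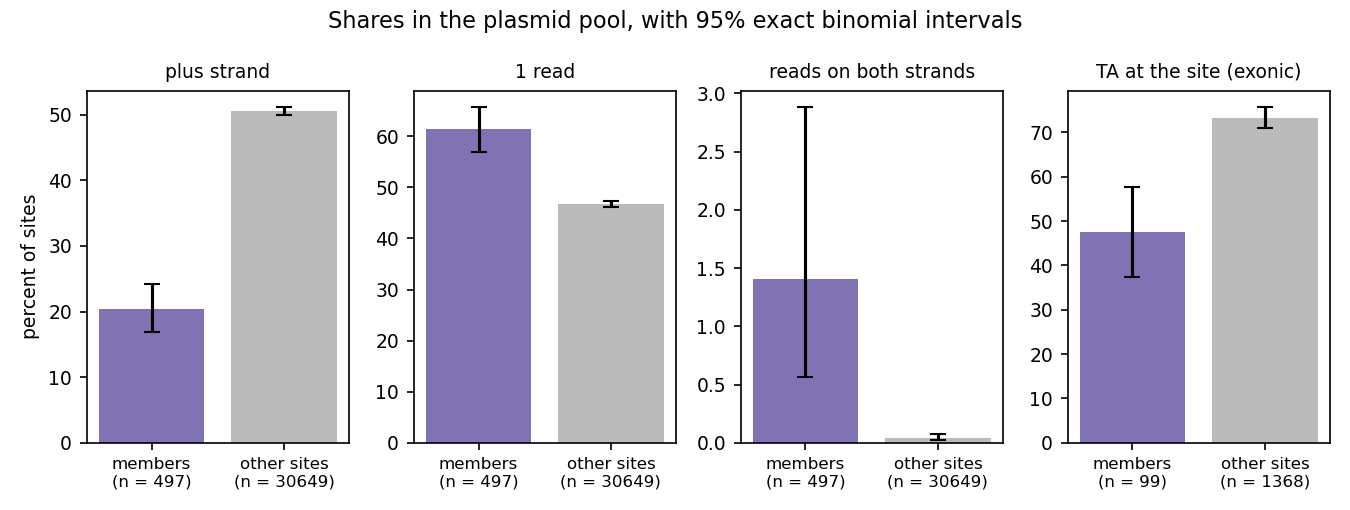
Percent of sites (vertical axis, from 0, with a scale of its own in each panel) on the plus strand, with 1 read, with reads on both strands and with TA, for the sites in the places and the other sites of the plasmid pool, with 95% exact binomial intervals. The sites in the places have fewer plus-strand sites (20.3% against 50.6%) and, over all sites with sequence, fewer TA (47.5% against 73.3%), and more sites of 1 read (61.4% against 46.7%).

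Reads on both strands were found at 7 of 497 sites (1.41%, 0.568 to 2.88) and at 13 of the other 30649 (0.0424%, 0.0226 to 0.0725). Such a site needs at least 2 merged entries of the deposited table, and the windows were picked for dense sites, so no test is given. Among sites with at least 2 entries the counts were 7 of 77 in the places and 13 of 202 elsewhere. Of the 7, 5 lay in the chromosome 2 window and 2 in the chromosome 9 window.

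Of the 497 sites, 234 (47.1%) lay in an annotated gene model. The same share among the other sites of the library is not given here, so whether this share is high or low cannot be told. Gm26870 held 154 of the 156 chromosome 9 sites, 23 of them in exons. Of the overlapping models on the same array, Gm10717 held 36 sites, Gm10719 15, Gm10722 14, Gm11168 13, Gm10718 and Gm10721 11 each and Gm17535 8. On chromosome 2, Gm10800 held 24 sites with 182 reads, 21 of the sites in exons, and Gm10801 held 17 with 82 reads. On chromosome 11, Sfi1, which encodes a centrosome-associated protein, held 22 sites with 37 reads, 19 of them in introns, and Drg1, which encodes a GTP-binding protein, held 6 with 10 reads. The other 11 models held 1 to 4 sites each. In the chromosome 11 window neither the spacing nor the 5 exonic sites with sequence showed the repeat, and the other 24 sites were not read. The name satellite is therefore not borne out there by these values, and it is described here as a window around Sfi1.

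The remobilized pool had 3 of its 746 sites in the places (0.402%, 0.0830 to 1.17), with 1 read each, against 497 of 31146 (1.60%, 1.46 to 1.74) in the plasmid pool. The windows were chosen for their sites in the plasmid pool, so these shares are a description, with no test. On the contigs alone, which were chosen by name, with the window sites left out of the totals, the shares were 0.268% of 745 sites of the remobilized pool and 0.832% of 30906 sites of the plasmid pool, a difference that did not pass the test (two-sided Fisher's exact test, p adjusted over 5 tests 0.0991).

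One of the 3 sites lay in the chromosome 2 array, at 98666940 on the plus strand in an exon of Gm10800, 9 bp from the best site of the plasmid pool at 98666931. It ran against the unit, as did 156 of the 160 positions of the plasmid pool laid onto the unit, and it lay at the TA of position 78, at which the plasmid pool had no position. The plasmid pool had 5 positions within 10 bp of it, the nearest 2 bp away, so by the merging rule it falls in the same site. It is shown in the direction of the unit.
Chromosome 2 at 98666940, 1 read, minus strand shown: tatttcacgtccTAaagtgtgtatt
The second was on JH584304 at 103649 on the minus strand, 85 bp from a minus-strand site of the plasmid pool with 1 read. The third was at 154377 on JH584299, where the nearest site of the plasmid pool was 133508 bp away. The chromosome 9 and chromosome 11 windows held 0 sites of the remobilized pool, which allows a share of up to 0.402% of its sites in each.

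The 9 clones had 0 of their 57 sites in the places, which allows a share of up to 5.26%, above the 1.60% of the plasmid pool. The control had 1 read, without a position. At this depth the clones and the control cannot show whether such sites were present.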

How the data were processed

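Deposited tables of 12 libraries were analysed, each listing single-base positions with a strand and a read count. The authors deposited whole-number counts without normalization. Build mm10 and the tools FastQC, BWA and deepTools are named, without roles, per the submitters' processing notes. Duplicate removal, filters and the treatment of reads that fit several places are not given in the sources used here. Counts carry no molecular identifiers. The parental line is in the labels and was not analysed here.

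Sites were counted per library with no minimum of reads. Reads without a position were left out of all shares. Sequence came from GENCODE M21 exons of GRCm38, on the plus strand, and no sequence was used for the contigs. Contexts of 25 bases were matched without gaps to a unit of 234 bases in both directions. The unit length was the most frequent distance on chromosome 9. Fisher's exact test compared shares and the exact binomial test strand, both two-sided and Benjamini-Hochberg adjusted with a threshold of 0.05 (Python 3.11.15, SciPy 1.17.1). Intervals are 95% intervals by the exact Clopper-Pearson method. A limit of 3 counts is given for shares of 0 among sites of other libraries and among positions laid onto the unit. Of the 5 tests adjusted together, those on reads on both strands and on both pools over all places are not used, because the windows were picked for dense sites. Scripts were tested on simulated data.

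The places and the measures were chosen with earlier results of these data known. Named were the 3 best supported sites of each window and of the contigs, contigs with at least 10 sites, gene models with at least 5 sites, and all such sites of other libraries. The 3 sites along the unit, the chromosome 14 and 17 windows and Gm21738 were named after their values were seen. The border on JH584304 and the blocks on chromosome 2 were also chosen after that. The laying of positions onto the unit was added after the data were examined. Alternatives were other merging distances, minimum reads, wider windows, and leaving out places.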

Additional observations from a re-analysis of the deposited data

How the results depend on the processing

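No paired analysis was possible because each group was 1 library. Requiring at least 2 or 5 reads per site left 192 and 35 sites in the places, and 240 were left without the contigs. The strand difference of -30.25 percentage points kept its direction and its side of the threshold in 9 of the 10 alternatives that did not select places by their strand; with at least 5 reads it was -14.98 points (Fisher's exact test, adjusted p 0.0874). The difference in sites of 1 read did so in 8 of 9, and without the contigs it was 4.55 points (adjusted p 0.173, Fisher's exact test). The difference in TA, -25.84 points, did so in 5 distinct alternatives, but with at least 5 reads, an alternative chosen after seeing the data, it was 0.27 points in the other direction (75.0% of 16 sites against 74.7% of 91, Fisher's exact test, adjusted p 1). Leaving out the contigs could not change it, since no contig site had sequence. The difference in reads on both strands, described without a test, kept its direction in all 8 run. The difference between the pools was -1.19 points, and only that on contigs was used as a test. The windows were picked for their sites in the plasmid pool, which favours a lower share in the remobilized pool. Where a window was kept, the direction is therefore no support. As a description, the difference kept its direction in all 13 alternatives run. It was -0.78 points with positions within 50 bp merged, -1.92 with at least 5 reads, -0.70 without the chromosome 9 window, -0.64 without the contigs, -1.09 without chromosome 6, -1.58 in shares of placed reads and -0.56 on contigs only (Fisher's exact test, adjusted p 0.0991, chosen after seeing the data). The cause was not tested. The share of pairs at 234 bp stayed within its interval under both alternatives. The depth of the clones and of the control limits what they can show in the places.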
